A study of Mus musculus with 18 samples.

Results

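Described here are 28 genes of cholesterol synthesis and sterol control in gp38+ stromal cells of the mouse salivary gland, over 6 time groups around an adenovirus infection. They were chosen by name, by their place in the pathway, and make up 28 of the 55401 genes counted. The 19 synthesis genes comprise 7 of the mevalonate arm and 12 of the sterol arm. The other 9 are 4 sterol-sensing genes, the sterol carrier gene Stard4, the LXR receptor gene Nr1h3 and 3 LXR target genes. All 28 passed the filter on low counts, which left 27525 genes for testing.

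The cells came from wild-type Balb/c mice aged 8 to 12 weeks when treated, and were sorted by flow cytometry for gp38, the product of Pdpn. The hour 0 group was uninfected. The other groups, taken at 3 hours and at 1, 2, 8 and 23 days, had received replication-defective adenovirus 5 (Ad5) into the cannulated submandibular duct, a model in which ectopic lymphoid structures form in the gland. Each group held 3 libraries, each from its own mouse per the labels. No group cannulated without virus was analysed here, so virus and cannulation cannot be told apart.

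Cells build cholesterol from acetyl-CoA through mevalonate and isoprenoid intermediates to squalene, lanosterol and then cholesterol. When sterols in the endoplasmic reticulum fall, SCAP carries SREBP2, the product of Srebf2, to the Golgi for cleavage, and the released factor switches on the synthesis genes. INSIG proteins hold SCAP back when sterols are plentiful. Oxysterols and late sterol intermediates activate the LXR receptors, which switch on the exporters Abca1 and Abcg1 and Mylip, whose product marks lipoprotein receptors for degradation. Synthesis genes and LXR targets are therefore classically regulated in opposite directions by cell sterol.

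Promoters of some of the genes are shown because SREBP2, LXR and the partner factor NF-Y act through short sequence elements, which were searched for in them. RefSeq promoter windows (GRCm38.p6, 250 bases before to 50 after a start) were matched for 23 of the 28 genes, including 16 synthesis genes and 2 LXR targets. The stretches below, printed 5′ to 3′ on the gene's strand, end at or before the gene's start and were shortened where an annotated transcript reached in. Capitals mark matches on either strand to the sterol regulatory element TCACNCCAC, to its shorter core CACNCCA, which lies within the longer motif, and to CCAAT, the NF-Y box. Hmgcs1 (hydroxymethylglutaryl-CoA synthase) is chr13:119690101-119690350, plus strand. Mvk (mevalonate kinase) is chr5:114444061-114444268, plus strand. Srebf2 is chr15:82147019-82147180 and Insig1 is chr5:28071162-28071362, both plus strand. Abca1 is chr4:53159896-53160145, minus strand, and Mylip is chr13:45389492-45389741, plus strand.
Hmgcs1: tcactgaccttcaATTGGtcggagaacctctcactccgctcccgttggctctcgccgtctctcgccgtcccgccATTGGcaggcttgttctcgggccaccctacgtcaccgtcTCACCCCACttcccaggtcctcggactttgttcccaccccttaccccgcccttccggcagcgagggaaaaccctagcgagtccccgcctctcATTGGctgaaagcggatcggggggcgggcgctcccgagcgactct
Mvk: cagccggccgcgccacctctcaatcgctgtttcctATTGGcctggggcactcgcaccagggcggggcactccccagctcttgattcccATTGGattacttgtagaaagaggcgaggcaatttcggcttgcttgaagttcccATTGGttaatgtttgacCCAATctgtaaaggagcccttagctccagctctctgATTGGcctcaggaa
Srebf2: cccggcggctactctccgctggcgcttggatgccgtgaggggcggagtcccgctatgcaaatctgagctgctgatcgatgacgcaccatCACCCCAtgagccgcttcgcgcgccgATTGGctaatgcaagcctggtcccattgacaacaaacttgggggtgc
Insig1: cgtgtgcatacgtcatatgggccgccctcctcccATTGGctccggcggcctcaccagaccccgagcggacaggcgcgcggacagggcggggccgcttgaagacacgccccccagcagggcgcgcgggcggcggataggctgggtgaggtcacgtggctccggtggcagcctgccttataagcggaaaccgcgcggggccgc
Abca1: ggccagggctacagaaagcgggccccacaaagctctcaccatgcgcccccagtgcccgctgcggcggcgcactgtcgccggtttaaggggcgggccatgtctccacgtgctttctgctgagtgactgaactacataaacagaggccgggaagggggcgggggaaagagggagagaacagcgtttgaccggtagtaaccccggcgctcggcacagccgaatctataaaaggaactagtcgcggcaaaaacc
Mylip: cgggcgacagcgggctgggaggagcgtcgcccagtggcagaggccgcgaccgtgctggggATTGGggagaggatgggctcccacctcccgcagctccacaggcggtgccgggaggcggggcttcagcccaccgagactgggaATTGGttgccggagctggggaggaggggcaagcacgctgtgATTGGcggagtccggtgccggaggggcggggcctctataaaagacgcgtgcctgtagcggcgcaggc

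The full element TCACNCCAC was found in 1 of the 23 genes, Hmgcs1, where it lay 137 to 129 bases before the start, against 1.44% of all 27025 genes with a window. CACNCCA lay in 6 of the 23 genes (Acat2, Hmgcs1, Insig1, Insig2, Msmo1 and Srebf2), against 20.6% of all genes. The Insig1 match lay 8 to 2 bases before the RefSeq start, past the end of the stretch shown. CCAAT lay in 19 of 23, among them 15 of the 16 synthesis genes, against 41.1% of all genes and 42.0% of the 14167 tested coding genes. Mvk held 5 copies in the stretch shown, Hmgcs1 3 and Mylip 3, while the Abca1 stretch had none. The Sp1 core GGGCGG was in 21 of 23, against 38.2% of all genes and 57.7% of the tested coding genes. For LXR, only an exact direct repeat of GGTCA with 5 bases between the copies was searched for. It was in 0 of 23 and in 0.0851% of all genes. Repeats in which a copy differs from GGTCA were not searched for. LXR elements of that kind are therefore not shown to be absent, in the Abca1 stretch or in any other. These matches describe the letters of the C57BL/6J reference, while the mice were Balb/c.

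Total counts ran from 4398234 to 15234431 per library, with a median of 10227904. The libraries fell into the replicates numbered 10 to 18 (hour 0, day 1 and day 2) and 1 to 9 (hour 3, day 8 and day 23). In the former, 1504 olfactory, vomeronasal and taste receptor genes, which these cells should not express, averaged 0.112, 0.0601 and 0.200 CPM (counts scaled to library size by TMM) per kilobase of exon at hour 0, day 1 and day 2. In the latter they averaged 0.0088, 0.00248 and 0.00243 at hour 3, day 8 and day 23. The labels name no batch, but where a comparison crosses the sets, its time points and its library sets cannot be told apart, so the comparisons within a set come first. Of the 28 genes, 16 stood above 10 times this background in every library, while Fdps, Dhcr7, Tm7sf2, Idi1 and Hsd17b7 came to 5 times or less in some.

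Fibroblast markers were present in every library, including Pdgfra, Col1a1 and Dcn. Their 8 genes summed to 24386 to 28856 CPM at hour 0, 11013 to 14975 at day 1 and 14729 to 22603 at day 2. The other set had 42898 to 43741 CPM at hour 3, 25787 to 29334 at day 8 and 22742 to 36706 at day 23. Pdpn, the gene of the sort marker, averaged 60.4 CPM at hour 0, 338 at day 1 and 190 at day 2. It averaged 827 CPM at hour 3, 68.3 at day 8 and 63.0 at day 23. Markers of salivary acinar and duct cells were also high. Their 9 genes summed to 30871 to 70305 CPM at hour 0, 2450 to 3322 at day 1 and 303 to 1189 at day 2. The sums were 72408 to 117919 at hour 3, 49288 to 147046 at day 8 and 73884 to 228299 at day 23. Mucl2 made up most of them, with a mean of 148360 of 155139 CPM at day 23. From day 8 to day 23 the means of Mucl2, Bhlha15 and Dcpp1 went up. Those of Smgc, Aqp5, Prol1, Epcam, Krt8 and Krt18 went down, Krt8 from 827 to 311 CPM. The 11 macrophage markers summed to 18.8 to 58.5 CPM at hours 0 and 3 and days 1 and 2, to 193 to 245 at day 8 and to 83.0 to 131 at day 23. The 5 neutrophil, 7 endothelial, 5 adipocyte and 7 T and B cell markers summed to at most 45.6, 138, 11.8 and 17.4 CPM in any library. Itgam was at 0 in 3 libraries, and Dcpp1, an acinar gene, in 4. The part of these RNAs in the results below was not tested. In bulk samples such as these, fewer cells of a type and less RNA per cell cannot be told apart.

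Levels between genes were compared per kilobase of exon. Abca1 had the highest mean of the 28 at hour 3, day 1 and day 2, with 76.2 ± 4.48 CPM per kilobase (SD, n = 3) at hour 3. Mylip had the highest at hour 0, day 8 and day 23, and reached 42.3 at day 8. Insig1 reached 47.3 and Srebf2 40.5 at hour 3. Among the synthesis genes, Hmgcs1, the condensing enzyme that makes the mevalonate precursor, had the highest level at day 23, with 23.6 CPM per kilobase, and Cyp51, the lanosterol demethylase, led at hour 3 with 19.9. Fdps, which makes farnesyl diphosphate, had the lowest of all group levels, 0.196 at day 1. Every synthesis gene's mean lay below that of the exporter Abca1 in every group.

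**Figure D1:**
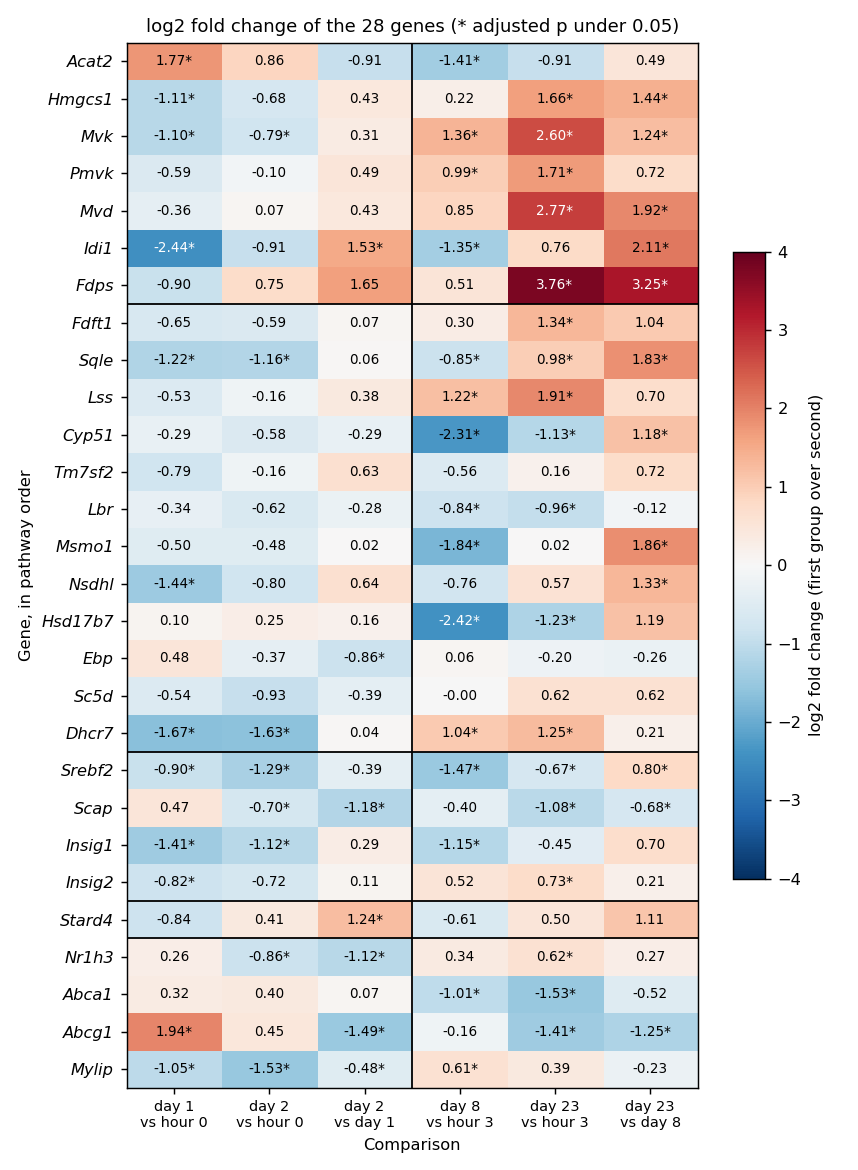
log2 fold changes of the 28 genes (rows, in pathway order, with lines between the mevalonate arm, sterol arm, sensors, Stard4 and the LXR genes) in the 6 comparisons within a library set (columns), coloured from blue (lower in the first group) to red (higher); stars mark an adjusted p under 0.05. In the rightmost column the synthesis genes above Lbr are all positive, with Fdps at 3.25.

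From day 8 to day 23, 9 of the 19 synthesis genes rose and 0 fell. Of the LXR targets Abcg1 fell, and Abca1 and Mylip did not pass the test. Calls are by edgeR's quasi-likelihood test, Benjamini-Hochberg adjusted over 27525 genes, of which 2.25% were higher and 3.08% lower. Among the 14147 genes of at least 5 CPM in 3 libraries, called here well-expressed genes, 5.65% were higher and 6.67% lower. The median log2 fold change of the 19 was 1.18, with 17 positive, against 0.00 over all genes. The 9 were Hmgcs1, Mvk, Mvd, Idi1, Fdps, Sqle, Cyp51, Msmo1 and Nsdhl.

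In the mevalonate arm 5 of 7 genes rose. Hmgcs1 read 34.9, 38.9 and 46.2 CPM in the 3 libraries of day 8, and 135, 101 and 88.5 in replicates 7, 8 and 9 of day 23. The groups did not overlap, and the log2 fold change was 1.44 (SE 0.242, edgeR adjusted p = 0.000503). Idi1, the isopentenyl diphosphate isomerase, read 2.5, 2.92 and 3.72 CPM at day 8 and 11.1, 20.2 and 7.81 at day 23, a log2 fold change of 2.11 (SE 0.484, edgeR adjusted p = 0.00837). Without replicate 8, the highest of the day 23 libraries, it was 1.63 with an edgeR adjusted p of 0.0550. Fdps had the largest rise of the 19, from 1.00, 1.87 and 0.853 CPM to 4.64, 20.6 and 10.2, or 3.25 on the log2 scale (SE 0.615, edgeR adjusted p = 0.00164). Every day 23 library lay above every day 8 library for these genes, although Fdps stayed the weakest and most uneven of them. Mvk and Mvd, which act between mevalonate and isopentenyl diphosphate, rose by 1.24 and 1.92. Pmvk, the kinase between them, had a log2 fold change of 0.72 and Acat2, the cytosolic thiolase, 0.49, and neither passed the test.

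In the sterol arm 4 of 12 genes rose. Sqle, the squalene epoxidase, read 10.2, 7.96 and 11.5 CPM at day 8 and 30.0, 38.8 and 36.7 at day 23. It was among the firmest changes, 1.83 on the log2 scale (SE 0.258, edgeR adjusted p = 7.16e-05), with a gap between the groups wider than either group's range. Cyp51 read 17.5, 15.8 and 19.5 CPM at day 8 and 32.3, 50.3 and 36.7 at day 23, a rise of 1.18 on the log2 scale (SE 0.216). Msmo1 and Nsdhl, which remove the C4 methyl groups of sterols, rose by 1.86 and 1.33. The remaining 8 did not pass the test. Of these Fdft1 (squalene synthase, 1.04, edgeR adjusted p = 0.0524), Lss (lanosterol synthase, 0.70) and Hsd17b7 (1.19) were positive, and Lbr (-0.12) and Ebp (-0.26) were the 2 negative ones. Tm7sf2, Sc5d and Dhcr7 had log2 fold changes of 0.72, 0.62 and 0.21.

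**Figure D2:**
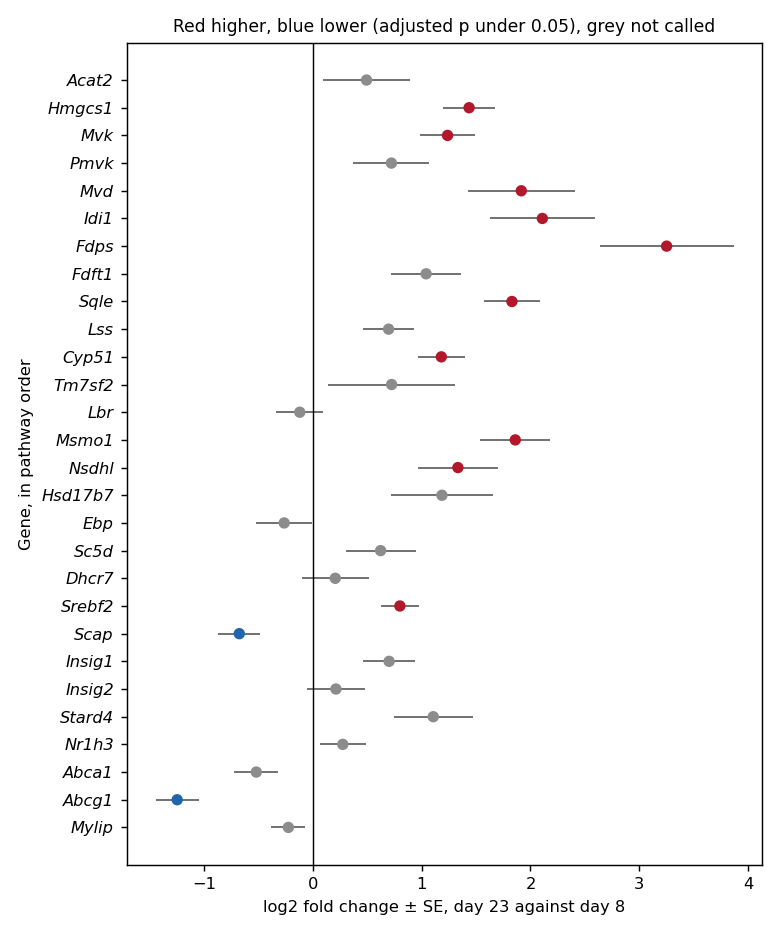
log2 fold change of day 23 against day 8 (horizontal axis, points, with bars of 1 SE) for the 28 genes in pathway order; red points rose, blue points fell and grey points did not pass the test. The 9 synthesis genes that rose range from Cyp51 at 1.18 to Fdps at 3.25, and Abcg1 stands at -1.25.

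The day 23 libraries were not alike. The acinar and duct markers, mostly Mucl2, summed to 73884 CPM in replicate 7, 228299 in replicate 8 and 163233 in replicate 9. Replicate 8 also had the highest value of the 3 for 12 of the 19 synthesis genes, among them Idi1, Fdps, Sqle, Cyp51 and Msmo1. How many of all genes were highest in replicate 8 was not counted, and a link to the marker sum was not tested. Without replicate 8, 7 synthesis genes were higher and 0 lower. Leaving out any single library of the 2 groups gave 7 to 11 higher and 0 lower.

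Against hour 3, day 23 had 9 synthesis genes higher and 3 lower, where 15.7% of all genes tested were higher and 14.3% lower, and among well-expressed genes 29.1% and 27.1%. Those higher were Hmgcs1 (1.66), Mvk (2.60), Pmvk (1.71), Mvd (2.77), Fdps (3.76), Fdft1 (1.34), Sqle (0.98), Lss (1.91) and Dhcr7 (1.25). Fdps had read 1.17, 0.659 and 0.772 CPM at hour 3. Those lower were Cyp51 (-1.13), Lbr (-0.96) and Hsd17b7 (-1.23). Hsd17b7, a ketosteroid reductase of the C4 demethylation complex, read 22.5, 11.6 and 20.3 CPM at hour 3, 3.08, 3.65 and 3.41 at day 8 and 11.2, 9.86 and 1.42 at day 23. Its day 23 call was lost without replicate 9, 4 or 6 and in several other settings. By arm, 5 of 7 mevalonate genes were higher and 0 lower, and of the 12 sterol genes 4 were higher and 3 lower.

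Hour 3 and day 8 differed in both directions within the synthesis genes. At day 8, 4 were higher (Mvk 1.36, Pmvk 0.99, Lss 1.22 and Dhcr7 1.04), where 16.5% of all genes were, and 7 lower, where 14.1% were. Among well-expressed genes the shares were 30.9% and 27.9%. The 7 were Acat2 (-1.41), Idi1 (-1.35), Sqle (-0.85), Cyp51 (-2.31), Lbr (-0.84), Msmo1 (-1.84) and Hsd17b7 (-2.42). Cyp51 read 113, 69.9 and 80.7 CPM at hour 3, more than in any library of the other groups, and fell with an SE of 0.220 and an edgeR adjusted p of 1.13e-09. Mvk, the largest of the rises, read 3.39, 3.95 and 4.5 CPM at hour 3 against 9.67, 9.74 and 11.2 at day 8. The median of the 19 was 0.00, as it was over all genes, and 0.078 over the well-expressed.

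Scaling and 1 library weighed on this comparison. Scaled by library totals alone, which moves the median of all genes by 0.47, 9 synthesis genes were higher and 3 lower at day 8, and for day 23 against hour 3, where the median moves by 0.21, 12 were higher and 0 lower. Hour 3 replicate 4 read 24.2 CPM for Sqle and 13.9 for Idi1, against 13.7 and 15.6, and 4.35 and 5.02, in replicates 5 and 6. Without it 4 synthesis genes were lower at day 8 rather than 7, the Idi1 change was -0.59 and that of Sqle -0.54, and neither passed the test. The Idi1 call also ended without replicate 1 or 2, with limma-voom (-1.15) and with library totals (-0.57), and that of Sqle without replicate 2 and with library totals (-0.069). Without replicate 2 or without replicate 6, 2 were higher rather than 4.

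**Figure D3:**
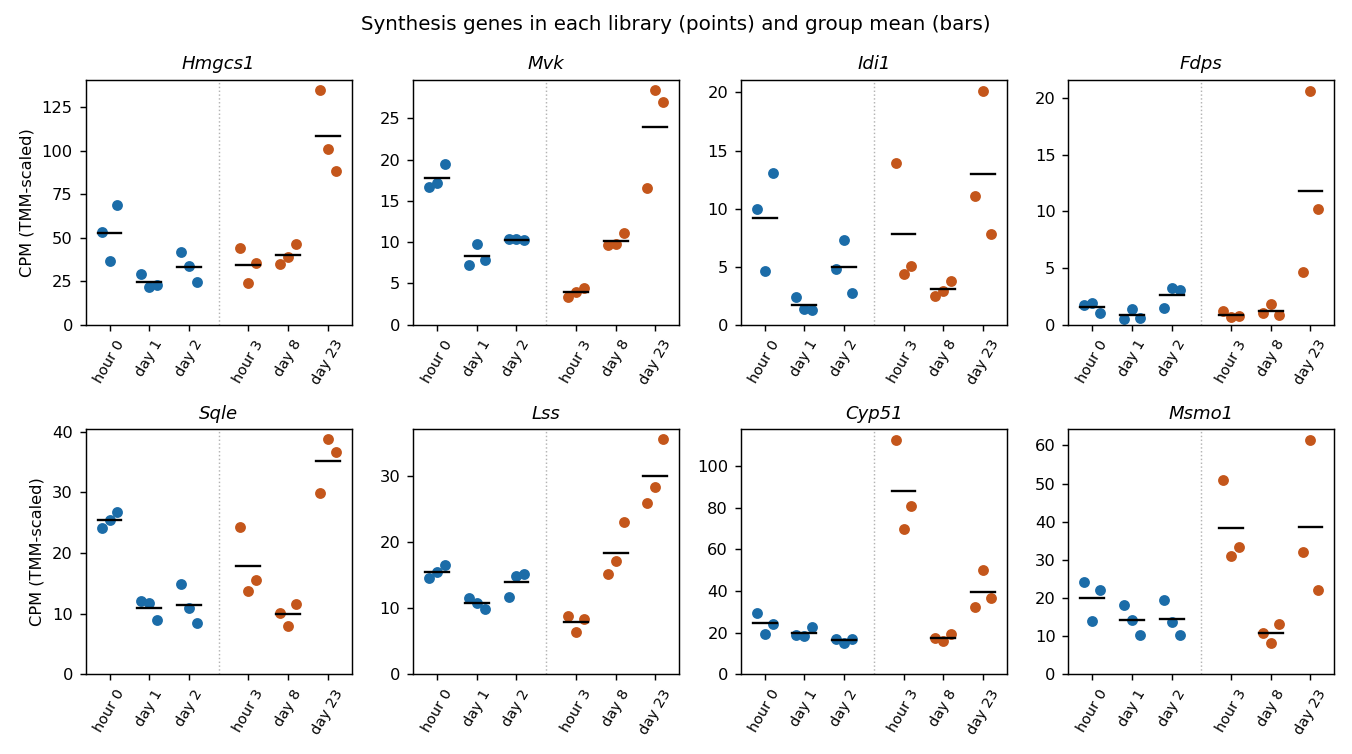
CPM (vertical axes, from 0, scaled by TMM) of 8 synthesis genes in each library (points) by group (horizontal axes), with bars at group means; blue marks replicates 10 to 18 and orange replicates 1 to 9. Day 23 is the highest orange group for Hmgcs1, Mvk, Idi1, Fdps, Sqle and Lss, and Cyp51 peaks at hour 3.

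In the set of hour 0, day 1 and day 2, more synthesis genes were lower than higher against hour 0, as among all genes tested. At day 1, 6 of 19 fell and 1 rose, where 12.8% of all genes were lower and 9.67% higher. Their median log2 fold change was -0.59, against -0.41 over all genes and -0.038 over the well-expressed, and among well-expressed genes 21.1% were lower and 21.2% higher. The group mean was highest at hour 0 for 14 of the 19 genes and lowest at day 1 for 13. This order was not counted over all genes, whose median change at day 1 was also negative.

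Idi1 had the largest fall, from 9.96, 4.64 and 13.1 CPM at hour 0 to 2.42, 1.39 and 1.27 at day 1, or -2.44 on the log2 scale (SE 0.502, edgeR adjusted p = 0.000433). Hmgcs1 read 53.1, 36.7 and 68.9 CPM at hour 0 and 29.3, 21.5 and 22.9 at day 1, a change of -1.11 (SE 0.243, edgeR adjusted p = 0.000907). Sqle read 24.2, 25.4 and 26.7 CPM at hour 0 and 12.1, 11.8 and 8.90 at day 1, a change of -1.22 (SE 0.253, edgeR adjusted p = 0.000501). In all of these every day 1 library lay below every hour 0 library. Mvk (-1.10), Nsdhl (-1.44) and Dhcr7 (-1.67), the last a reductase that completes cholesterol, were the others that fell. Acat2 was the 1 that rose, from 1.26, 2.49 and 1.90 CPM to 6.69, 7.14 and 5.46, or 1.77 (SE 0.407, edgeR adjusted p = 0.00151). It lies beside a close copy, Acat3, with which reads could be shared.

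At day 2 the same comparison gave 0 higher and 3 lower, where 5.12% of all genes were higher and 9.63% lower, and 12.2% and 17.3% of the well-expressed. These were Mvk (-0.79), Sqle (-1.16) and Dhcr7 (-1.63). Dhcr7 read 9.00, 13.8 and 14.4 CPM at hour 0, 3.87, 3.92 and 3.89 at day 1 and 3.76, 4.89 and 3.34 at day 2. Day 1 and day 2 overlapped, and the lowest day 2 library stood at 2.74 times its receptor-gene background. Sqle at day 2 read 14.9, 11.0 and 8.45 CPM, and Hmgcs1, with 41.5, 33.9 and 24.3, did not pass the test (-0.68, edgeR adjusted p = 0.0588). The median of the 19 was -0.58, against 0.29 over all genes, and 0.0048 over the well-expressed. Without replicate 11 the count lower was 5.

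Between day 1 and day 2, 1 synthesis gene was higher and 1 lower, where 12% of all genes were higher and 11.2% lower, and 18.3% and 20.3% of the well-expressed. Idi1 rose by 1.53, to 4.81, 7.27 and 2.71 CPM, a call that ended without replicate 17 (1.12) and without replicate 14, 15 or 16. Ebp, the sterol isomerase, read 18.6, 12.5 and 16.2 CPM at day 1 and 7.06, 9.06 and 9.91 at day 2, a change of -0.86 that ended without replicate 13, 15, 16 or 17 and under 4 other settings. Cyp51, with 29.6, 19.5 and 24.3 CPM at hour 0, 18.9, 18.4 and 22.6 at day 1 and 16.8, 15.3 and 16.9 at day 2, passed none of the 3 tests in this set. Over all 3 groups of each set, a test for any change called 8 of the 19 synthesis genes at hour 0, day 1 and day 2, where 30.5% of all genes and 55.8% of the well-expressed were called, and 16 of the 19 at hour 3, day 8 and day 23, where 34.9% and 65.3% were. For all 28 genes the counts were 16 and 22.

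Among the sensors, Srebf2 and Insig1, itself a target of SREBP2, changed alongside the enzymes in part. Srebf2 read 181, 164 and 176 CPM at hour 0, 82.5, 103 and 94.0 at day 1 and 70.3, 70.5 and 72.2 at day 2. It fell by 0.90 on the log2 scale at day 1 (SE 0.177, edgeR adjusted p = 0.000273) and by 1.29 at day 2 (SE 0.180, edgeR adjusted p = 2.96e-06), without overlap of the groups. In the other set it read 359, 229 and 285 CPM at hour 3, 113, 93.8 and 109 at day 8 and 226, 178 and 144 at day 23. It was thus lowest at day 8, with a change of -1.47 from hour 3, and rose by 0.80 to day 23 (edgeR adjusted p = 0.00625), a call that ended without replicate 2 (0.72, edgeR adjusted p = 0.0663). Day 23 lay below hour 3 by -0.67, which became 0.070 with scaling by library totals and -0.46, past the threshold no longer, without replicate 4.

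Insig1, whose product anchors SCAP, read 44.7, 34.2 and 56.5 CPM at hour 0, 13.6, 18.9 and 18.4 at day 1 and 22.7, 27.8 and 12.0 at day 2. It fell by 1.41 at day 1 (SE 0.251, edgeR adjusted p = 6.73e-05) and by 1.12 at day 2. At hour 3 it read 183, 118 and 138 CPM, at day 8 52.8, 60.7 and 84.0 and at day 23 104, 126 and 90.7. It fell by 1.15 from hour 3 to day 8, a call lost with library totals (-0.39), and its later change of 0.70 did not pass the test, although the day 23 libraries all lay above those of day 8. Insig2 fell at day 1 (-0.82) and was higher at day 23 than at hour 3 (0.73). Scap fell at day 2 against hour 0 (-0.70) and day 1 (-1.18), and at day 23 against hour 3 (-1.08) and day 8 (-0.68). Scap therefore fell over the interval in which Srebf2 and 9 of the enzymes rose.

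Stard4, which carries sterol between membranes, read 9.87, 6.68 and 8.69 CPM at hour 0, 2.66, 4.79 and 6.65 at day 1 and 14.1, 11.6 and 7.93 at day 2. It rose from day 1 to day 2 by 1.24 (SE 0.370, edgeR adjusted p = 0.0167), a call that ended without replicate 13, 16 or 17. In the other set it read 16.3, 6.72 and 8.24 CPM at hour 3, 5.83, 6.90 and 7.75 at day 8 and 17.5, 16.7 and 9.71 at day 23. The day 23 libraries lay above those of day 8, but the change of 1.11 did not pass the test (edgeR adjusted p = 0.0750).

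The LXR receptor gene Nr1h3 read 45.5, 48.5 and 38.8 CPM at hour 0, 56.8, 61.7 and 40.3 at day 1 and 24.8, 19.4 and 28.9 at day 2. It was lower at day 2 than at day 1 (-1.12, SE 0.211) and than at hour 0 (-0.86), the latter lost without replicate 17 and under 2 other scalings. At hour 3 it read 16.2, 19 and 19.7 CPM, at day 8 25.8, 23.9 and 19.9 and at day 23 30.9, 22.0 and 32.0. It was higher at day 23 than at hour 3 by 0.62, a call that ended without replicate 4, 5, 7 or 9.

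**Figure D4:**
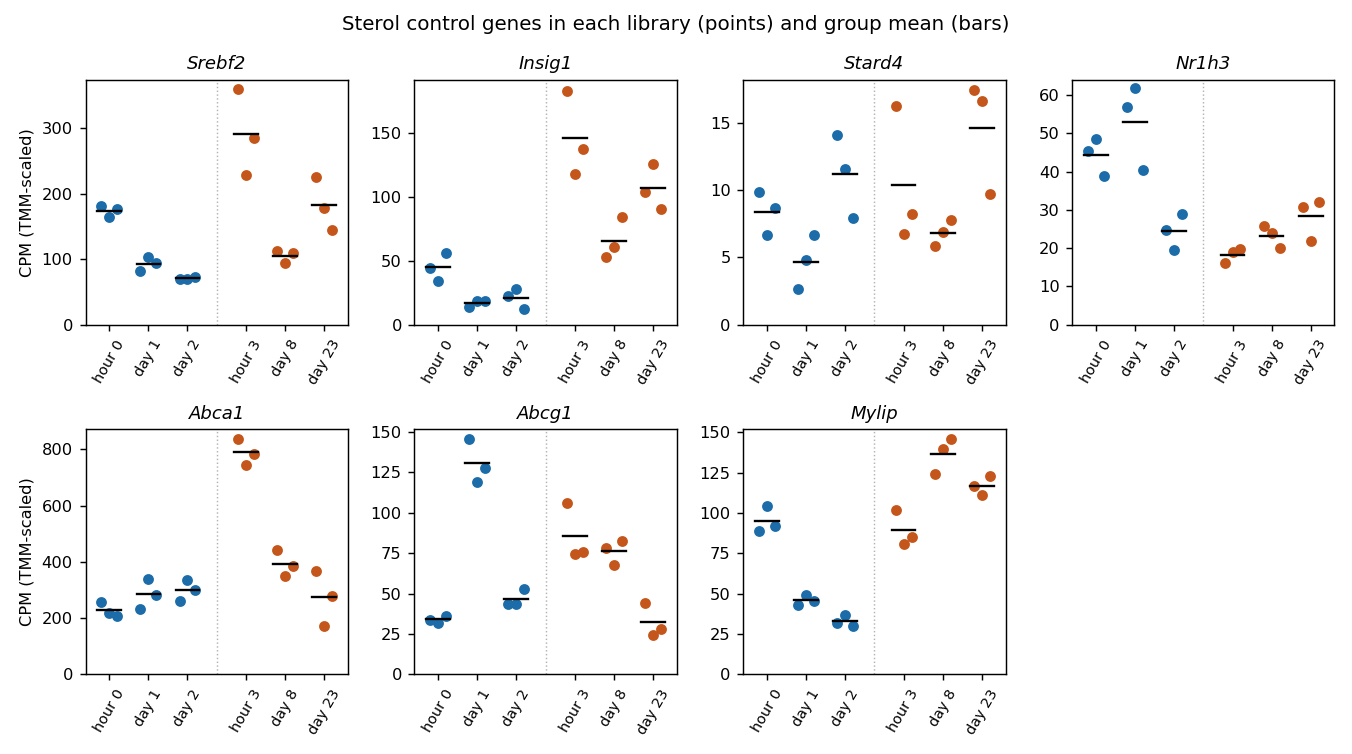
CPM (vertical axes, from 0, scaled by TMM) of Srebf2, Insig1, Stard4, Nr1h3 and the 3 LXR targets in each library (points) by group, with bars at group means; blue marks replicates 10 to 18 and orange replicates 1 to 9. Abcg1 stands at 119 to 145 CPM at day 1, and Mylip at 30.0 to 36.9 at day 2.

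The LXR targets did not move as a block. Abcg1, which exports sterol to lipoprotein particles, read 33.5, 32.1 and 36.4 CPM at hour 0 and 145, 119 and 128 at day 1, the highest of any group. It rose by 1.94 on the log2 scale (SE 0.199, edgeR adjusted p = 7.15e-09) and by day 2, at 43.6, 43.5 and 52.6 CPM, had fallen by 1.49 (SE 0.196). At hour 3 it read 106, 74.3 and 75.7 CPM, at day 8 78.4, 67.9 and 82.6 and at day 23 44.2, 24.6 and 27.9. Hour 3 and day 8 overlapped (-0.16, and 0.62 with library totals), and day 23 lay below day 8 by -1.25 (SE 0.199, edgeR adjusted p = 0.000294) without overlap.

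Abca1, which loads sterol onto apolipoprotein A-I, read 257, 219 and 207 CPM at hour 0, 231, 340 and 284 at day 1 and 260, 336 and 301 at day 2. Hour 0 and day 1 overlapped, while every day 2 library lay above every hour 0 library, and neither change (0.32 and 0.40) passed the test. At hour 3 it read 838, 746 and 786 CPM, at day 8 443, 350 and 385 and at day 23 369, 174 and 281. It fell from hour 3 by 1.01 to day 8, lost with library totals (-0.22), and by 1.53 to day 23 (SE 0.206, edgeR adjusted p = 7.03e-07). From day 8 to day 23 its change of -0.52 did not pass the test (edgeR adjusted p = 0.150), and replicate 8 was the lowest library of all for Abca1.

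Mylip went the other way from Abcg1 at day 1. It read 89.1, 105 and 91.7 CPM at hour 0, 43.0, 49.3 and 45.4 at day 1 and 32.0, 36.9 and 30.0 at day 2. It fell by 1.05 at day 1 (SE 0.158, edgeR adjusted p = 5.86e-06) and by 1.53 at day 2 (SE 0.161, edgeR adjusted p = 2.66e-08). The step from day 1 to day 2 (-0.48) was lost in 11 of the other settings run. In the other set it read 102, 80.9 and 85.3 CPM at hour 3, 124, 139 and 146 at day 8 and 117, 111 and 123 at day 23. It rose by 0.61 from hour 3 to day 8 (edgeR adjusted p = 0.00254), where Abca1 fell, and its change to day 23 (-0.23) did not pass the test.

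To set synthesis beside the LXR targets within a library, the mean log2 CPM of Abca1, Abcg1 and Mylip was subtracted from that of the 19 synthesis genes, a difference that no scaling of the library moves apart from the prior count. It is a description of chosen genes, with no test. The difference was -2.98 ± 0.201 (SD, n = 3) at hour 0, -3.97 ± 0.130 at day 1 and -3.15 ± 0.160 at day 2. It was -4.09 ± 0.213 at hour 3, -4.18 ± 0.0882 at day 8 and -2.47 ± 0.584 at day 23. Day 1 libraries lay below all those of hour 0 and day 2, and day 23 libraries above all those of hour 3 and day 8. Replicate 8 was the highest of day 23 at -1.80, and without it the mean was -2.81.

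Which target was used changed the order. Against Abcg1 the difference fell from -1.57 at hour 0 to -4.10 at day 1, and against Mylip it went from -3.05 to -2.60. Against Abca1 it was lowest at hour 3, -6.21, where it stood at -5.47 at day 8 and -3.88 at day 23. Against Mylip the lowest group was day 8, at -3.95. Against Abca1 it went from -4.30 at hour 0 to -5.21 at day 1. The day 1 value was thus lower than that of hour 0 against both exporters and higher against Mylip, and the day 23 mean was higher than that of day 8 against each of the 3 targets.

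**Figure D5:**
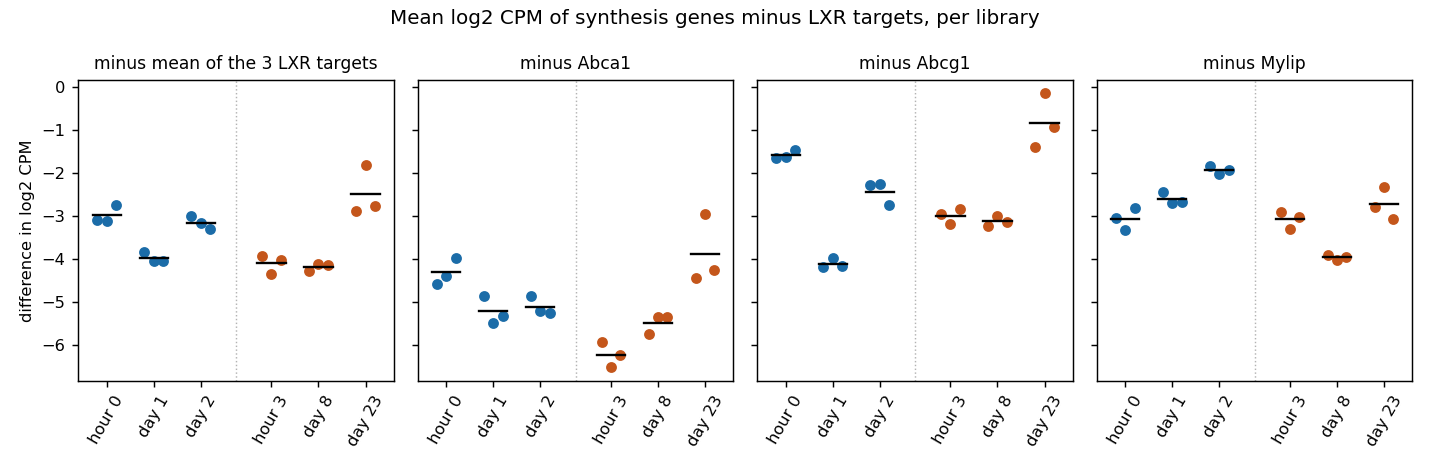
Mean log2 CPM of the 19 synthesis genes minus that of the LXR targets (vertical axes) in each library (points) by group, with bars at group means: from left to right against the mean of the 3 targets, Abca1, Abcg1 and Mylip. Against the mean of the targets, day 1 lies near -3.97 and day 23 near -2.47, while against Mylip day 1 lies above hour 0.

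Comparisons across the library sets share the hour 0 libraries and confound time with library set. At hour 3, 5 synthesis genes were higher and 6 lower than at hour 0, where 16.9% of all genes were higher and 43.1% lower. Cyp51 was higher by 1.84 (SE 0.216) and Mvk lower by -2.17 (SE 0.277). Abca1 (1.80), Abcg1 (1.33) and Insig1 (1.69) were higher. With library totals, which move the median of all genes by -1.13, 2 synthesis genes were higher and 14 lower, and Srebf2 turned from 0.75 to -0.44. Leaving out replicate 4 gave 3 higher. At day 8, 1 was higher and 4 lower, where 11.2% and 32.7% of all genes were, and with library totals 0 and 11. The 1, Ebp (0.64), was lost in most other settings, and 2 were lower without replicate 1 or replicate 12. At day 23, 7 were higher and 0 lower, where 8.51% and 25.4% were, among them Hmgcs1 (1.03), Fdps (2.94) and Lss (0.94), but with library totals or with only those 2 groups fitted 2 were higher, and 4 were without replicate 8. Of the 14147 well-expressed genes, 4037 were higher and 5292 lower at hour 3 than at hour 0. The numbers were 2106 and 2745 at day 8, and 1365 and 1947 at day 23.

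Lists of neighbouring lipid pathways are given by their counts, to be read against the shares of all genes given above for each comparison, and their difference from the synthesis genes was not tested. Among well-expressed genes those shares, higher and lower, were 21.2% and 21.1% at day 1, 12.2% and 17.3% at day 2, 30.9% and 27.9% at day 8 against hour 3, and 5.65% and 6.67% at day 23 against day 8. Of 14 fatty acid synthesis and SREBP1 genes, 2 rose and 6 fell at day 1, and 0 rose and 11 fell at day 2. The desaturase Scd1 went from a mean of 185 CPM at hour 0 to 44.5 at day 1 (-2.05), and the elongase Elovl6 from 18.1 to 3.47 (-2.38). From day 8 to day 23, 2 of these 14 rose and 0 fell, the desaturase Fads1 (1.06) and Elovl6 (0.79). From hour 3 to day 8, 3 rose, with Scd2 at 1.93 and Srebf1, the SREBP1 gene, at 1.23, and 5 fell, with Elovl6 at -3.20. Of 11 genes of the nonsterol branches of the mevalonate pathway, such as protein prenylation, 0 rose and 0 fell from day 8 to day 23. At day 1, 0 rose and 1 fell, Fnta, a farnesyltransferase subunit (-0.71), and at day 8 against hour 3, 2 rose and 3 fell.

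Of 8 genes of SREBP cleavage and sterol-regulated degradation, 1 rose and 3 fell at day 1, and 0 rose and 3 fell at day 2. Mbtps1, the site-1 protease that first cuts SREBP, was among both (-0.93 and -1.48), with means of 263 CPM at hour 0, 138 at day 1 and 94.1 at day 2. From day 8 to day 23, 0 of the 8 rose or fell. Of 13 genes of sterol uptake, transport and storage, 2 rose and 2 fell at day 1. Npc2, which moves cholesterol out of lysosomes, rose from a mean of 41.0 to 270 CPM (2.72), and Soat1, which esterifies cholesterol, fell (-0.99). At day 8 against hour 3, 7 rose and 3 fell, and from day 8 to day 23 1 fell, Scarb1, the HDL receptor, by 1.86. Of 9 LXR partners and other LXR targets, 1 rose and 2 fell at day 1. Lpcat3, a phospholipid-remodelling enzyme, rose (1.08), and Smpdl3a (-2.41) and Pltp fell.

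Of 5 oxysterol enzymes, 2 rose and 1 fell at day 1 and again at day 2, 0 rose and 3 fell at day 8 against hour 3, and 0 rose or fell from day 8 to day 23. Ch25h, which makes 25-hydroxycholesterol, averaged 3.42 CPM at hour 0, 113 at day 1 and 33.9 at day 2. It averaged 1785 CPM at hour 3, 5.88 at day 8 and 4.41 at day 23, and fell from hour 3 to day 8 by 8.24 on the log2 scale (edgeR adjusted p = 2.73e-14). Cyp7b1, which hydroxylates oxysterols further, rose at day 1 (3.11), and Cyp27a1, the sterol 27-hydroxylase, fell (-3.23). The groups highest in Ch25h within each set, hour 3 and day 1, also had the highest means of Abcg1, although hour 3 and day 8 overlapped for Abcg1. Abca1 was highest at hour 3 in its set, and its change at day 1 did not pass the test. Mylip went the other way. Its mean was 89.4 CPM at hour 3, the lowest of that set, against 137 at day 8 and 117 at day 23. From hour 0 to day 1 the Mylip mean fell from 95.1 to 45.9 CPM. A link between Ch25h and these targets was not tested.

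Reads of some of these genes may not be theirs alone, since the strand setting of the counting is not given in the sources used here. Exons of 10 of the 28 genes overlap those of another gene. Fdft1 shares 774 of 4227 exon bases with Ctsb on the opposite strand, a gene averaging 2668 to 7312 counts. Fdps shares 1124 of 4208 with Gm43738 on its own strand, which averaged 0.00 to 4.00 counts. Whether reads in shared exons were counted or dropped was not checked, so the Fdps level may be too low. The lowest Fdps library held 5 counts at hour 3 and 26 at day 23. Tm7sf2, a gene of low counts, shares 532 of 4403 with Vps51 on its own strand, which averaged 92.7 to 223 counts. Cyp51 shares 166 of 4415 with Akap9 on the opposite strand.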

How the data were processed

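Counts of 18 libraries of sorted cells, 3 in each of 6 groups, were analysed. Per the submitters' processing notes, FastQC, STAR, Subread and DESeq2 were used with mm10. Versions and strand setting are not given in the sources used here. The deposited values are raw counts per gene. Of 55401 identifiers 55141 matched GENCODE M21 (GRCm38), and the other 260 held 0.0241% of counts.

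All libraries were fitted together in edgeR 4.0.16 (R 4.3.3) by quasi-likelihood, with group means, filterByExpr (minimum count 10, minimum total 15) and TMM scaling. Rose and fell mean a Benjamini-Hochberg adjusted p under 0.05 over all 27525 genes tested. Per-library log2 CPM used a prior count of 2. Scripts were tested on simulated data for day 1 against hour 0, with changes set in genes above 5 CPM. Of these, 50% of the 2-fold and 92% of the 4-fold changes were recovered. Unchanged genes made up 3.40% of the calls. The simulation changed 100 genes at each fold among 21344 and gave 147 calls, where the real comparison gave 6193. It otherwise used 1 mean profile for all groups. Its recovery rates are therefore not those of the real tests. Still, a change that did not pass the test is not shown to be absent. p-values cover the spread between 3 libraries a group. Alternatives were other scalings, filters, DESeq2 1.42.0, limma-voom (limma 3.58.1), fewer groups, background subtraction and leaving out each library.

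The genes and lists were chosen with earlier results of these data known. Values per library are given for 11 genes chosen by role and, for each comparison within a set, for the synthesis genes with the largest called rise and fall. From the other lists, at most 3 genes per comparison with the largest called change and at least 10 CPM were eligible, plus Ch25h. Promoters came from RefSeq windows. Some genes of this pathway are not reported here.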

Additional observations from a re-analysis of the deposited data

How the results depend on the processing

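Of 369 recomputed counts and mean differences, 312 stayed within 1.5 times the reported count or 1 SD of the reported mean, and 57 did not. The 6 synthesis genes lower at day 1 (5 to 6 with 1 library left out) and the 9 higher at day 23 against day 8 (7 to 11) kept within that range in every setting run. The counts that moved, as synthesis genes higher, were as follows. At day 2 against hour 0, DESeq2 gave 1 for 0. At day 2 against day 1, for a count of 1, DESeq2 size factors gave 2, library totals 3, the stricter filter 2, DESeq2 3, limma-voom 0, the 2 groups alone 0 and TMM from well-expressed coding genes 4, with 0 to 1 when leaving out 1 library. At day 8 against hour 3, library totals gave 9 for 4 (2 to 3 with 1 library out). At hour 3 against hour 0 they gave 2 for 5 (3 to 6). At day 23 against hour 0, library totals and the 2 groups alone gave 2 for 7 (4 to 8, the 4 without replicate 8). At day 8 against hour 0, for a count of 1, no filter gave 2, and DESeq2 size factors, library totals, the stricter filter, DESeq2, the 2 groups alone, leaving out day 2 and coding-gene TMM gave 0 (0 to 1 with 1 library out). As synthesis genes lower, day 2 against hour 0 gave 5 with no filter and 7 with the 2 groups alone for 3 (2 to 5). Day 2 against day 1, for a count of 1, gave 0 with DESeq2 size factors, library totals, DESeq2 and coding-gene TMM, and 2 with limma-voom and the 2 groups alone (0 to 1). Library totals gave 3 for 7 at day 8 against hour 3 (4 to 8, the 4 without replicate 4), 0 for 3 at day 23 against hour 3, 14 for 6 at hour 3 against hour 0, and 11 for 4 at day 8 against hour 0, where coding-gene TMM gave 9 (2 to 6, the 2 without replicate 1 or replicate 12). Without Mylip the mean difference to the LXR targets was -4.60 at hour 3, -4.65 at day 1, -3.76 at day 2 and -4.29 at day 8. The cause was not tested. Of the recomputed values of single genes, 1118 kept direction and call, 60 lost the call, 34 gained one and 6 reversed. With library totals the reversals were Insig1 (0.27) and Srebf2 (0.070) at day 23 against hour 3, Stard4 (0.17) and Abcg1 (0.62) at day 8 against hour 3, and Srebf2 (-0.44) at hour 3 against hour 0. With 1 library left out, Abcg1 at day 8 against hour 3 ran from -0.24 (without replicate 5) to 0.048 (without replicate 4). TMM from coding genes, the fit without day 2 and the mean difference without Mylip were chosen after seeing the data. No paired analysis was possible because no replicate number occurs in more than 1 group.

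The 3 libraries in a group limit what can be called, and the weakest genes, Fdps, Dhcr7, Tm7sf2, Idi1 and Hsd17b7, lie nearest the background of hour 0, day 1 and day 2.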
